A study of Rattus norvegicus with 80 samples.

Results

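The genes described here are 4 of the 32883 Ensembl rat identifiers counted by RNA sequencing in 80 libraries: Cdh1 (ENSRNOG00000020151), Epcam (ENSRNOG00000015667), Vim (ENSRNOG00000018087) and Acta2 (ENSRNOG00000058039). They were chosen by name, as 2 genes of epithelial adhesion and 2 genes of the mesenchymal cytoskeleton, and all 4 passed the filter on low counts in every fit. The libraries came from rats that were wildtype or that belonged to 1 of 3 lines carrying mutated Nf1, which encodes neurofibromin, a protein that switches Ras off. The labels call these lines IF, PS and IFPS and give neither the alleles nor the age of the animals. Whole mammary pads, which hold the gland together with its fat, numbered 6 for wildtype, 3 for IF, 6 for PS and 6 for IFPS. Tumors numbered 5 for IF, 9 for PS and 9 for IFPS, with no tumor of wildtype rats. Mammary epithelial cells (MECs), fibroblasts and adipocytes had 3 libraries for wildtype and 3 for each line, and were flow sorted, per the series text, which names no gate. MECs and fibroblasts had been grown in a dish until nearly confluent and extracted with a column kit, whereas pads, tumors and mature adipocytes were extracted with Trizol. Tissue, culture and extraction therefore cannot be told apart between these kinds of sample. The labels do not say whether libraries of one group came from separate animals, so p-values measure the spread between these samples, which may be technical.

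Cdh1 encodes E-cadherin, the adhesion molecule of adherens junctions, and Epcam encodes the epithelial cell adhesion molecule, a surface protein of simple epithelia. Vim encodes vimentin, the intermediate filament of fibroblasts and other mesenchymal cells, which epithelial cells often express once they are cultured. Acta2 encodes smooth muscle alpha-actin, the contractile actin of vascular smooth muscle, of myofibroblasts and, in the mammary gland, of the myoepithelial cells around ducts and alveoli. In an epithelial-mesenchymal transition, epithelial cells lose junction proteins such as E-cadherin and gain vimentin. In RNA of a whole pad or tumor, fewer cells of a type and less RNA per cell cannot be told apart.

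The promoters of 3 of the 4 genes are shown because Epcam and Acta2 were both low in 3 tumors in which Vim was not. Each sequence is the 250 bases before the gene's start in RefSeq's annotation of GRCr8, 5′ to 3′ on the gene's own strand. The counts themselves were made on Rnor_6.0, per the submitters' processing notes. The 3 windows lie at chr6:12649679-12649928 on the minus strand for Epcam, chr17:81577011-81577260 on the plus strand for Vim and chr1:241172504-241172753 on the minus strand for Acta2. Cdh1 is named only. Capitals mark matches to 3 motifs that do not overlap one another here.
Epcam: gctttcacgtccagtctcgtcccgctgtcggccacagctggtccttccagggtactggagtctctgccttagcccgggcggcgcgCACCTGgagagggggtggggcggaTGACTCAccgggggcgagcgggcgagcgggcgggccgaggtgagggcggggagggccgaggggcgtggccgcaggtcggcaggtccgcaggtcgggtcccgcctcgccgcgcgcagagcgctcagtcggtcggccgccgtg
Vim: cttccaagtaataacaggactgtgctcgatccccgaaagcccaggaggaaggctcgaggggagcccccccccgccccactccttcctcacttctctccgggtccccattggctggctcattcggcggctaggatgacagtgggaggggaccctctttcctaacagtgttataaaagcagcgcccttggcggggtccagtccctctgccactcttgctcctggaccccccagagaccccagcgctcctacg
Acta2: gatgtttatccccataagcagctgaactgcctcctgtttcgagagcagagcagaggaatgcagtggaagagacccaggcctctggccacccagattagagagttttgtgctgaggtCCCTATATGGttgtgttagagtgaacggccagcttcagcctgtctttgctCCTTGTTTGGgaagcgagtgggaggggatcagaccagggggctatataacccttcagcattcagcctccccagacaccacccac
The motifs were the E-box CAGGTG, a word bound by repressors of the Snail and Zeb families, the AP-1 word TGANTCA, and the CArG box of serum response factor with at most 1 mismatch in its core. Each was searched on both strands. The Epcam window held CACCTG, the E-box on the other strand, 165 bases before the start, and TGACTCA at 141 bases. In the Acta2 window, CCCTATATGG stood 134 bases and CCTTGTTTGG 84 bases before the start. The Vim window held none of the 3. Over 33469 rat promoters of the same length, 15.9% held the E-box, 6.34% the AP-1 word and 8.08% a CArG box by this rule. A match describes the letters only. The G and C content of the windows was 75.6% for Epcam, 62.4% for Vim and 54.0% for Acta2.

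Library totals ran from 17344717 to 37293141 counts. Levels are given as counts-per-million (CPM) of the library totals scaled with TMM factors, which correct for differences in composition between libraries. These factors ran from 0.6902 in an adipocyte library to 1.331 in a tumor library, and their median was 1.27 in tumors and 0.74 in adipocytes. A difference between groups was tested with edgeR's quasi-likelihood test on the counts of all genes and called at a Benjamini-Hochberg adjusted p under 0.05. Log2 differences are given with their standard error (SE). Where ranges of 2 groups are said not to overlap, the share of all genes without overlap was not counted. Such statements describe the named genes only.

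MECs were high in the 2 epithelial genes, and fibroblasts were high in the 2 cytoskeletal genes. Cdh1 lay between 517 and 719 CPM in the 12 MEC libraries, with a median of 662 CPM. In the 12 fibroblast libraries Cdh1 lay between 12.6 and 78.1 CPM, with a median of 25.5 CPM. Epcam ran from 294 to 482 CPM in MECs and from 7.17 to 41.2 CPM in fibroblasts. Neither gene's range in MECs overlapped its range in fibroblasts. Vim was in turn highest in fibroblasts, at 5104 to 7339 CPM, and ran from 1181 to 1711 CPM in MECs. Acta2 ran from 2316 to 4514 CPM in fibroblasts and from 186 to 291 CPM in MECs. As means over the 4 lines, Cdh1 was higher in MECs than in fibroblasts by 4.42 ± 0.27 (log2, SE; adjusted p = 7.92e-15) and Epcam by 4.45 ± 0.34 (adjusted p = 1.66e-12). Vim was lower in MECs by a log2 difference of -2.15 ± 0.07 (adjusted p = 7.75e-21) and Acta2 by -3.90 ± 0.27 (adjusted p = 1.57e-13). All 4 genes were thus called, in a comparison in which 79.2% of 15928 genes were called. MECs, as isolated here, therefore held Vim well above 1000 CPM in every library.

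Adipocytes had little of the epithelial genes outside 1 line. In wildtype adipocytes, Cdh1 was at 3.70, 3.74 and 11.3 CPM and Epcam at 1.35, 1.37 and 12.2 CPM. PS adipocytes had Cdh1 at 1.26, 1.16 and 1.25 CPM, and IFPS adipocytes at 1.39, 1.73 and 1.01 CPM. In both of those lines every library lay below every wildtype library. Acta2 ran from 4.01 to 15.9 CPM in these 9 libraries, and Vim from 662 to 1152 CPM. The line apart was IF, in which mean Cdh1 was at 189 CPM in adipocytes and 27.0 CPM in fibroblasts, and mean Epcam at 114 and 17.4 CPM. Averaged over all 4 lines, MECs exceeded adipocytes for Cdh1 by 6.56 ± 0.31, for Epcam by 6.49 ± 0.40, for Acta2 by 3.44 ± 0.27 and for Vim by 0.38 ± 0.07 (log2, SE), with adjusted p-values of at most 4.98e-06. Fibroblasts exceeded adipocytes for Acta2 by 7.35 ± 0.32, for Vim by 2.53 ± 0.07, for Cdh1 by 2.15 ± 0.28 and for Epcam by 2.04 ± 0.39, with adjusted p-values of at most 2.62e-05. The 4 genes were called in both comparisons, beside 85.6% of all genes for MECs against adipocytes and 83.5% for fibroblasts against adipocytes. With IF adipocytes left out, a choice made after seeing the data, the differences of MECs from adipocytes were 8.16 ± 0.25 for Cdh1, 8.02 ± 0.36 for Epcam, 4.94 ± 0.21 for Acta2 and 0.65 ± 0.07 for Vim. Those of fibroblasts from adipocytes were then 3.77 ± 0.23 for Cdh1, 3.60 ± 0.35 for Epcam, 8.79 ± 0.25 for Acta2 and 2.71 ± 0.08 for Vim. All 4 genes were called in both of these fits, beside 85.9% and 83.1% of genes. IF adipocytes stood apart in these same genes, so the fits without them describe the other lines and are no test. With wildtype libraries alone, the call for Epcam between fibroblasts and adipocytes was lost (1.32 ± 0.72, adjusted p = 0.132).

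**Figure D1:**
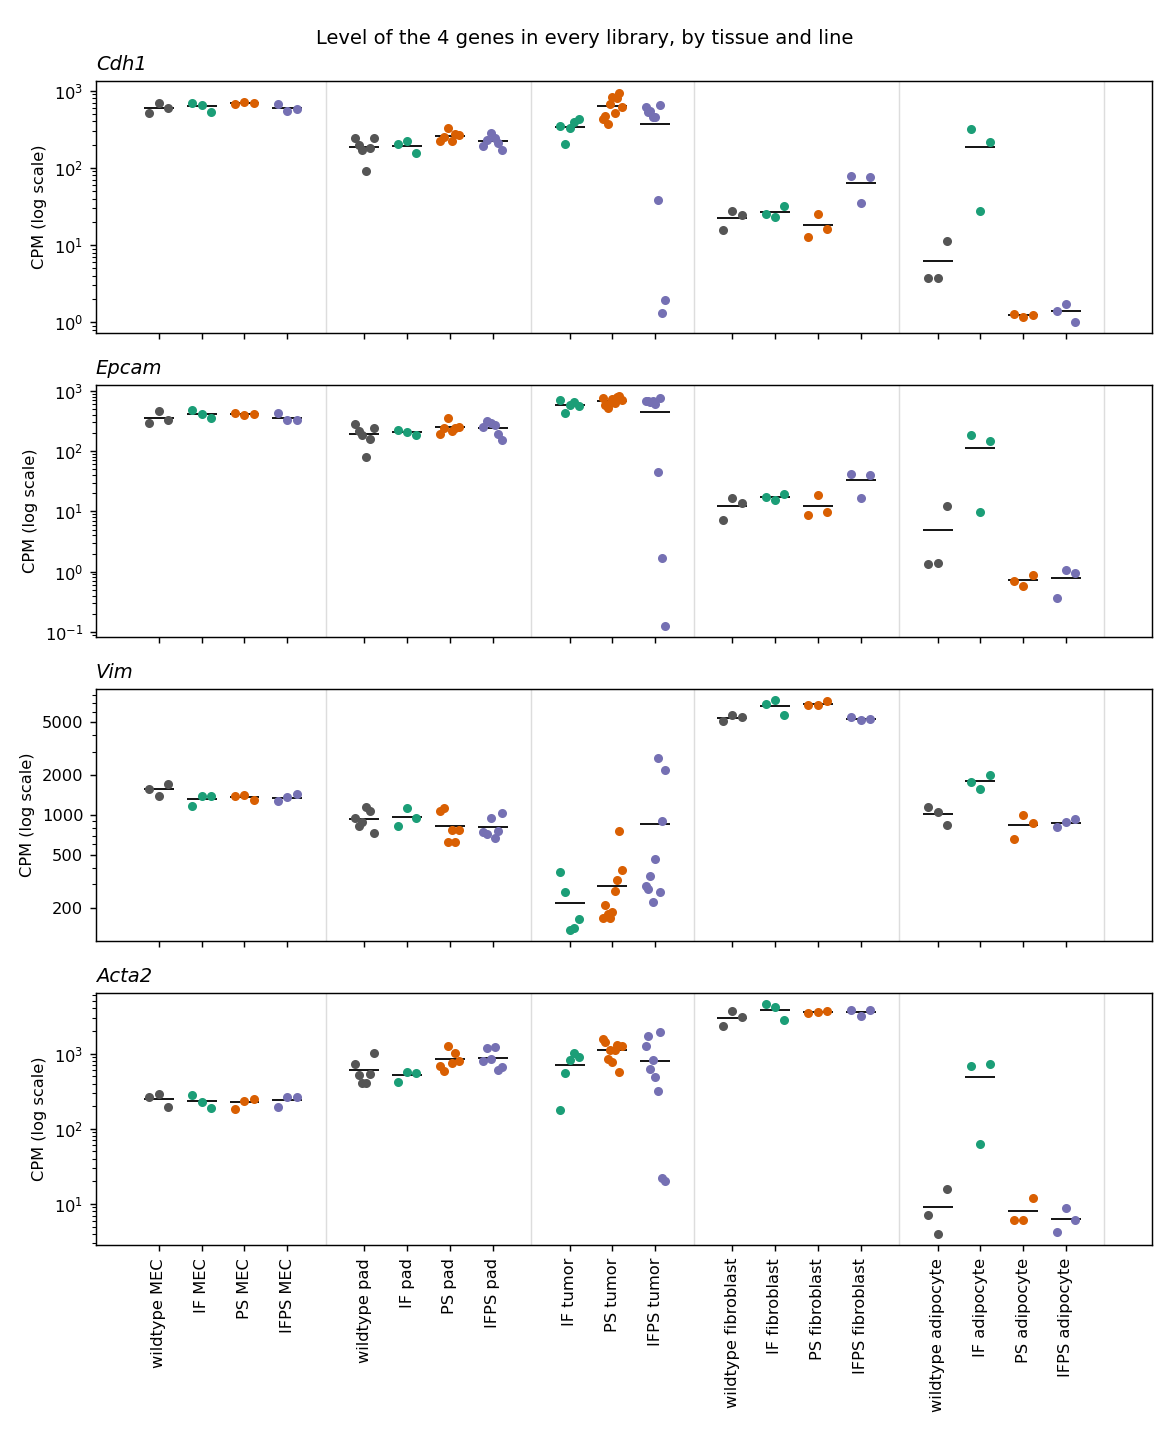
Level of Cdh1, Epcam, Vim and Acta2 in each of the 80 libraries (points, CPM on a log scale) by group, with a bar at the group mean; colors mark the line. Cdh1 and Epcam were high in MECs and in most tumors, Vim and Acta2 were highest in fibroblasts, and 3 IFPS tumors and the IF adipocytes stood away from the other libraries of their kind.

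Ordered by mean level over the 19 groups, Cdh1 was highest in PS MECs (701 ± 18.7 CPM, SD, n = 3) and lowest in PS adipocytes (1.23 ± 0.05 CPM, SD, n = 3). PS tumors (628 ± 200 CPM, SD, n = 9) stood at place 3 for Cdh1, among the 4 groups of MECs. Of the 18 pairs of neighbours in the order of Cdh1, 4 did not overlap in range, all of them at or below the step from pads to fibroblasts. Epcam had its highest group means in tumors instead, at 683 ± 102 CPM in PS tumors (SD, n = 9), 583 ± 100 CPM in IF tumors (SD, n = 5) and 453 ± 331 CPM in IFPS tumors (SD, n = 9). Only 1 of its 18 neighbouring pairs did not overlap, IFPS adipocytes below wildtype adipocytes. Vim was highest in PS fibroblasts (6944 ± 272 CPM, SD, n = 3) and lowest in IF tumors (215 ± 101 CPM, SD, n = 5), and 3 neighbouring pairs did not overlap. Acta2 was highest in IF fibroblasts (3809 ± 896 CPM, SD, n = 3) and lowest in IFPS adipocytes (6.40 ± 2.26 CPM, SD, n = 3), and 2 neighbouring pairs did not overlap, PS tumors below the fibroblasts and wildtype adipocytes below PS MECs.

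In pads, none of the 4 genes was called in a mutated line against wildtype. Over the 21 pads, Cdh1 ran from 91.1 to 328 CPM, Epcam from 81.3 to 351 CPM, Vim from 627 to 1143 CPM and Acta2 from 402 to 1279 CPM. The largest differences from wildtype were those of Acta2, at 0.56 ± 0.25 in IFPS pads (log2, SE; adjusted p = 0.626) and 0.51 ± 0.25 in PS pads (adjusted p = 0.508). Cdh1 in PS pads differed by 0.49 ± 0.19 (adjusted p = 0.402), and 4 of the 6 PS pads lay above all wildtype pads. IF pads differed from wildtype by at most 0.24 in size for each of the 4 genes, which was the value of Acta2 (-0.24 ± 0.33, adjusted p = 1.0). edgeR called 0 of the 4 genes in each line, beside 0% of 16384 genes in IF, 0.0061% in PS and 0% in IFPS. At an unadjusted p under 0.05 it found 0 of the 4 in IF, 1 in PS (Cdh1) and 1 in IFPS (Acta2), and DESeq2 called 0 in each. Over all 16384 genes, those at an unadjusted p under 0.05 numbered 1679 for the PS comparison, 1297 for IFPS and 306 for IF. The genes that DESeq2 called numbered 80 for the PS comparison, 21 for IFPS and 0 for IF.

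Although the lines were not called apart, the 4 genes varied together from pad to pad. Relations were computed on log2 CPM for the 6 pairs of genes in all 21 pads and within each of 2 sets of title numbers, 18 relations in all, after the data had been seen. Cdh1 and Epcam rose together (r = 0.908, Spearman rho = 0.821, permutation test, both adjusted p = 0.00018, n = 21; r = 0.754 without the 2 pads farthest from the median Cdh1). Within pads 1 to 12 their r was 0.819 and within pads 13 to 21 it was 0.985. Acta2 went with Epcam as well, with r = 0.707 and rho = 0.762 over all pads (permutation test, adjusted p = 0.000585 and 0.00102), 0.853 within pads 1 to 12, 0.890 within pads 13 to 21, and 0.637 without the 2 farthest pads. Acta2 with Cdh1 gave r = 0.706 and rho = 0.758 (permutation test, adjusted p = 0.000585 and 0.0009), with 0.703 and 0.835 within the sets and 0.63 without the 2 farthest pads.

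Vim ran the other way, less evenly. Against Epcam its r over 21 pads was -0.592 and its rho -0.561 (permutation test, adjusted p = 0.00328 and 0.0142), with r = -0.454 without the 2 farthest pads. Against Acta2 its r was -0.672 and its rho -0.687 (permutation test, adjusted p = 0.00198 and 0.00396; r = -0.621 without the 2 farthest). Within pads 13 to 21 the corresponding r were -0.867 and -0.860 (exact permutation test, adjusted p = 0.00148 and 0.00474, n = 9). Within pads 1 to 12 they were -0.561 and -0.508 (permutation test, adjusted p = 0.0654 and 0.0974), and without the 2 farthest pads of that set they were -0.085 and 0.119. Vim against Cdh1 was -0.515 over all pads (rho = -0.431, permutation test, adjusted p = 0.0151 and 0.0626), -0.848 within pads 13 to 21 and -0.173 within pads 1 to 12. The negative relations of Vim were thus past the threshold within pads 13 to 21 and not within pads 1 to 12. The wildtype pad with the lowest Epcam (81.3 CPM) also had the lowest Cdh1 (91.1 CPM) and the highest Vim of all pads (1143 CPM).

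**Figure D2:**
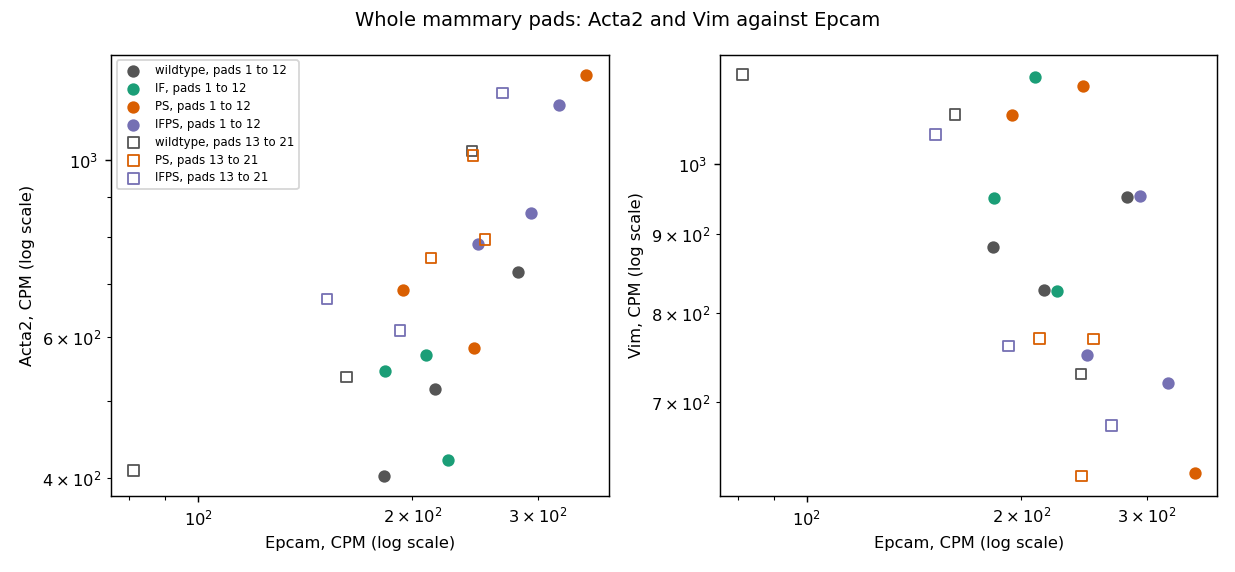
Acta2 (left) and Vim (right) against Epcam in the 21 whole mammary pads, CPM on log scales; each point is 1 pad, colors mark the line, and filled and open symbols mark title numbers 1 to 12 and 13 to 21. Acta2 was higher where Epcam was higher (r = 0.707) and Vim lower (r = -0.592).

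MECs of the 3 mutated lines kept the epithelial genes near the wildtype level. Cdh1 in wildtype MECs was at 517, 694 and 604 CPM, and in PS MECs, the line with the highest mean, at 681, 718 and 704 CPM. The difference between these groups was 0.21 ± 0.12 (log2, SE; adjusted p = 0.364). Vim was at 1577, 1405 and 1711 CPM in wildtype MECs, and at 1181, 1383 and 1396 CPM in IF MECs, all 3 of which lay below all wildtype MECs. Its difference in IF was -0.24 ± 0.09 (adjusted p = 0.202), in PS -0.19 ± 0.09 (adjusted p = 0.279) and in IFPS -0.20 ± 0.09 (adjusted p = 0.448). Acta2 and Epcam differed from wildtype by 0.23 or less in size in each line. edgeR called 0 of the 4 genes in every line, beside 0.817% of 14688 genes in IF, 2.36% in PS and 0.374% in IFPS. At an unadjusted p under 0.05 it found Vim in IF and in IFPS and 0 genes of the 4 in PS. All genes at that threshold numbered 2512 in IF, 2785 in PS and 1588 in IFPS. DESeq2 called 0 of the 4 in each line, beside 653 genes in IF, 870 in PS and 208 in IFPS.

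Fibroblasts of the lines differed in both directions. Vim was at 5104, 5669 and 5475 CPM in wildtype, and at 6825, 6752 and 7256 CPM in PS, with no overlap. It was called in PS (0.35 ± 0.09, log2, SE; adjusted p = 0.0249), the only 1 of the 4 genes called there, beside 21.7% of 13879 genes. That call was lost without wildtype fibroblast 1 or 3 or PS fibroblast 1, 2 or 3 (adjusted p of at most 0.08) and when only PS and wildtype were fitted (adjusted p = 0.0607). IF fibroblasts had Vim at 6899, 7339 and 5700 CPM, also above all wildtype libraries, at a difference of 0.30 ± 0.09 (adjusted p = 0.0726). In IF, edgeR called 0 of the 4 genes, beside 7.66% of all genes. Vim was the 1 gene of the 4 at an unadjusted p under 0.05, beside 3651 of all 13879 genes. DESeq2 called Vim (adjusted p = 0.00964), beside 13.6% of genes.

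IFPS fibroblasts had Vim near the wildtype level (5492, 5220 and 5304 CPM) and stood out in the epithelial genes. Cdh1 was at 78.1, 35.2 and 76.5 CPM in IFPS fibroblasts and at 15.9, 27.9 and 24.2 CPM in wildtype fibroblasts. Epcam was at 41.2, 16.9 and 40.6 CPM in IFPS and at 7.17, 16.4 and 13.99 CPM in wildtype. For both genes every IFPS library lay above every wildtype library, and IFPS fibroblast 2 was the lowest of the 3. The differences of 1.47 ± 0.33 for Cdh1 (adjusted p = 0.0843) and 1.38 ± 0.39 for Epcam (adjusted p = 0.103) were not called by edgeR, which called 0 of the 4 genes beside 0.0648% of all genes. Both had an unadjusted p under 0.05, as did 2965 of all 13879 genes. DESeq2 called both (adjusted p = 0.00132 and 0.00975), beside 6.34% of genes. Without IFPS fibroblast 2, the lowest of its group for both genes, edgeR called both beside 1.69% of genes. Leaving out the lowest library raises both differences by itself, so these calls are no test. The IFPS level of Cdh1 had a median of 12.8% of the mean of IFPS MECs, against 4.01% in wildtype.

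IFPS fibroblasts were also compared with PS and IF fibroblasts directly, a choice made after the data had been seen. IFPS exceeded PS fibroblasts in Cdh1 by 1.80 ± 0.34 (log2, SE; adjusted p = 0.00183) and in Epcam by 1.42 ± 0.38 (adjusted p = 0.0127), while Vim was lower by -0.38 ± 0.09 (adjusted p = 0.00842). These were 3 of the 4 genes, beside 40.5% of all genes. Without PS fibroblast 3, the call for Epcam was lost. Against IF fibroblasts, IFPS had higher Cdh1 (1.21 ± 0.33, adjusted p = 0.0184) and lower Vim (-0.33 ± 0.09, adjusted p = 0.0221), so that 2 of the 4 were called beside 31.4% of all genes. Calls of that comparison were lost in several fits without 1 library: Cdh1 without IFPS fibroblast 1 or 3 or IF fibroblast 1 or 2, and Vim without IFPS fibroblast 1, 2 or 3 or IF fibroblast 1 or 2. In a fit of IFPS and IF fibroblasts alone, Vim was not called (adjusted p = 0.055). DESeq2 called 3 of the 4 genes, with Epcam as the added one (0.91, adjusted p = 0.0442), beside 34.4% of genes. Acta2 lay between 2316 and 4514 CPM in the 12 fibroblast libraries and was called in none of these 5 comparisons.

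IF adipocytes held more of all 4 genes than wildtype adipocytes. Cdh1 was at 321, 27.9 and 218 CPM in the 3 IF libraries, against 11.3 CPM in the highest of the 9 others. Epcam was at 188, 9.91 and 145 CPM, with IF adipocyte 2 below the highest wildtype library (12.2 CPM). Acta2 was at 687, 62.1 and 716 CPM, against at most 15.9 CPM in the others. Vim was at 1781, 1584 and 2023 CPM, against at most 1152 CPM. IF adipocytes 1 and 3 were thus close to each other, and IF adipocyte 2 held the least of all 4 genes, by a wide step for Cdh1, Epcam and Acta2. Against wildtype, the differences were 4.95 ± 0.79 for Cdh1 (log2, SE; adjusted p = 0.000805), 4.54 ± 1.05 for Epcam (adjusted p = 0.00538), 0.86 ± 0.18 for Vim (adjusted p = 0.00305) and 5.80 ± 0.90 for Acta2 (adjusted p = 0.000694). All 4 genes were called, beside 48.2% of 14304 genes, and stayed called when any 1 adipocyte library was left out. Without wildtype adipocyte 3, the differences were 5.71 for Cdh1, 6.44 for Epcam and 6.504 for Acta2, and without IF adipocyte 1 that of Cdh1 was 4.32.

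In the same libraries, Epcam per Cdh1 was 0.587, 0.355 and 0.664, ordered from IF adipocyte 1 to 3. This ratio ran from 0.541 to 0.688 in the 12 MEC libraries and from 0.451 to 0.72 in the fibroblasts. It ran from 0.364 to 1.08 in wildtype, 0.5 to 0.708 in PS and 0.267 to 0.957 in IFPS adipocytes. The ratio therefore did not set MECs apart from these kinds of sample. The median level of the 3 IF adipocytes was 34.6% of the mean of IF MECs for Cdh1 and likewise 34.6% for Epcam. Acta2 in IF adipocytes ran from 1.63% to 18.8% of the mean of IF fibroblasts, and Vim from 23.8% to 30.4%. Acta2 per Vim was 0.386, 0.0392 and 0.354 in IF adipocytes, and its range was 0.114 to 0.237 in MECs and 0.454 to 0.716 in fibroblasts. Adipocyte markers could not be looked up by symbol, so the identity of these libraries was not checked. Whether the sort or other cells have a part in the result was not tested.

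PS and IFPS adipocytes lay on the other side of wildtype in the epithelial genes. In PS, the differences were -2.35 ± 0.87 for Cdh1 (log2, SE; adjusted p = 0.31) and -2.78 ± 1.25 for Epcam (adjusted p = 0.422), with Epcam at 0.7101, 0.582 and 0.885 CPM. In IFPS they were -2.19 ± 0.85 (adjusted p = 0.614) and -2.66 ± 1.22 (adjusted p = 0.781), with Epcam at 0.370, 1.05 and 0.963 CPM. Wildtype adipocyte 3 had the highest Cdh1 and Epcam of its group, and without it the PS differences were -1.57 for Cdh1 and -0.87 for Epcam, and the IFPS differences -1.42 and -0.75. edgeR called 0 of the 4 genes in PS, beside 0.378% of all genes, and 0 in IFPS, beside 0%. At an unadjusted p under 0.05 it found Cdh1 and Epcam in PS and Cdh1 in IFPS, and DESeq2 called Cdh1 in PS (adjusted p = 0.0245), beside 3.48% of genes, and 0 of the 4 in IFPS. Of all genes, 1680 in PS and 927 in IFPS had an unadjusted p under 0.05, and DESeq2 called 219 in IFPS. Compared directly, after the data had been seen, IF exceeded PS adipocytes by 7.30 ± 0.93 for Cdh1 (adjusted p = 0.000171) and IFPS adipocytes by 7.14 ± 0.91 (adjusted p = 0.000164). All 4 genes were called in each of these comparisons, beside 52.7% of genes against PS and 53% against IFPS. The value against PS was 6.67 and that against IFPS 6.51 without IF adipocyte 1.

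**Figure D3:**
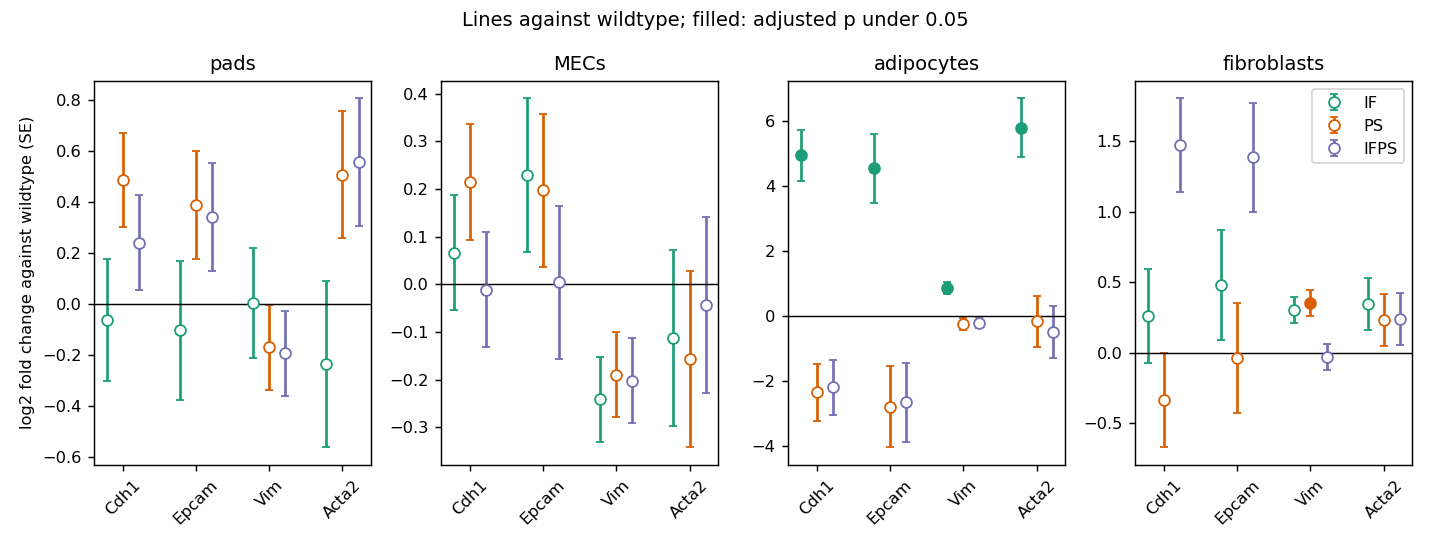
Log2 difference of each mutated line from wildtype for the 4 genes in pads, MECs, adipocytes and fibroblasts (points with SE bars, 1 vertical scale per panel); filled points passed an adjusted p of 0.05 in edgeR. The filled points are the 4 genes in IF adipocytes and Vim in PS fibroblasts.

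Most tumors held more Epcam and Cdh1 and less Vim than the pads of their line. Of the 23 tumors, 20 had Epcam above every pad of their line, 19 had Cdh1 above every such pad and 19 had Vim below every such pad. All 3 held together in 18 tumors, of which 4 were IF, 8 PS and 6 IFPS. The counts for these 3 genes were the same with RLE factors and without scaling factors. Acta2 showed no common direction: 9 tumors lay above, 8 within and 6 below the range of their pads (10, 8 and 5 with RLE factors).

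In PS, Cdh1 ran from 370 CPM through a median of 616 to 949 CPM in 9 tumors and from 223 through 260 to 328 CPM in 6 pads. Epcam ran from 513 through 709 to 807 CPM in the tumors and from 194 through 244 to 351 CPM in the pads. Neither gene's ranges overlapped, which likewise was not counted over all genes. Vim ran from 167 through 208 to 755 CPM in the tumors and from 627 through 770 to 1124 CPM in the pads, with 8 of 9 tumors below all pads. In the fit of all tumors and pads of the 3 lines, which shares 1 estimate of the spread per gene, Vim was lower in PS tumors by -1.52 ± 0.44 (log2, SE; adjusted p = 0.00774). Cdh1 at 1.25 ± 0.65 (adjusted p = 0.124) and Epcam at 1.44 ± 0.71 (adjusted p = 0.105) were not called. That made 1 of the 4 genes, beside 38.9% of 17227 genes. In a fit of PS tumors and pads alone, Cdh1 (1.32 ± 0.21, adjusted p = 9.69e-05) and Epcam (1.51 ± 0.14, adjusted p = 1.43e-06) were called with Vim, beside 53.2% of genes. Without IFPS tumor 8, or without IFPS tumor 9, the fit of all lines called both as well, beside 43.5% and 44.6% of genes. Those tumors had the lowest levels of both genes among all tumors, so these fits are no test.

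In IF, Epcam was at 700, 435, 578, 646 and 557 CPM in the 5 tumors and at 224, 209 and 183 CPM in the 3 pads. Vim was at 371, 263, 136, 142 and 165 CPM in the tumors and at 827, 1140 and 950 CPM in the pads. Neither gene overlapped between tumors and pads, a description only, since the share of all genes without overlap was not counted. Cdh1 was at 353, 204, 332, 389 and 432 CPM in the tumors and at 202, 220 and 154 CPM in the pads, so that IF tumor 2 lay among the pads. Vim was lower by -2.17 ± 0.61 (log2, SE; adjusted p = 0.012), and Epcam at 1.51 ± 0.997 (adjusted p = 0.263) and Cdh1 at 0.84 ± 0.89 (adjusted p = 0.499) were not called. That was 1 gene of the 4, beside 23.3% of all genes. Fitting IF tumors and pads alone called Cdh1 (0.85 ± 0.25, adjusted p = 0.0398) and Epcam (1.53 ± 0.19, adjusted p = 0.00159) with Vim, beside 27% of genes.

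IFPS tumors were split. Tumors 1, 2, 3, 4, 5 and 7 had Cdh1 at 623, 523, 542, 463, 456 and 658 CPM and Epcam at 676, 680, 643, 675, 595 and 757 CPM. Their Vim was at 290, 275, 346, 220, 466 and 264 CPM. The IFPS pads ran from 170 to 282 CPM for Cdh1, from 152 to 321 CPM for Epcam and from 676 to 1045 CPM for Vim. These 6 tumors thus lay above all pads in the epithelial genes and below all pads in Vim.

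IFPS tumors 6, 8 and 9 lay below all pads in Cdh1, Epcam and Acta2. Tumor 6 had Cdh1 at 38.8 CPM, Epcam at 45.0 CPM, Vim at 2684 CPM and Acta2 at 313 CPM. Tumor 8 had Cdh1 at 1.33 CPM, from 38 reads (95% exact Poisson interval 0.943 to 1.83 CPM), Epcam at 1.68 CPM, from 48 reads (1.24 to 2.23 CPM), Vim at 903 CPM and Acta2 at 22.1 CPM. Tumor 9 had Cdh1 at 1.95 CPM, from 31 reads (1.33 to 2.77 CPM), Epcam at 0.126 CPM, from 2 reads (0.0152 to 0.455 CPM), Vim at 2200 CPM and Acta2 at 20.1 CPM. The intervals cover counting error only. Vim was above all IFPS pads in tumors 6 and 9 and within their range in tumor 8, and these 2 tumors were the only ones of the 23 with lower Cdh1 and Epcam and higher Vim than all pads of their line. In tumors 8 and 9 the Cdh1 level was near that of PS and IFPS adipocytes (1.01 to 1.73 CPM) and below every fibroblast library (12.6 CPM or more).

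These 3 tumors held less Acta2 relative to Vim than fibroblasts and pads did. Acta2 per Vim was 0.117 in tumor 6, 0.0245 in tumor 8 and 0.00912 in tumor 9. It ran from 0.454 to 0.716 in the fibroblasts and from 0.358 to 2.03 in the pads. In MECs it ran from 0.114 to 0.237, a range that holds tumor 6. In wildtype adipocytes it ran from 0.00378 to 0.019, in PS from 0.00606 to 0.0138 and in IFPS from 0.00525 to 0.00985. IF adipocytes, which stood apart, ran from 0.0392 to 0.386. Tumor 9 lay within the wildtype, PS and IFPS ranges, tumor 6 within that of IF only, and tumor 8 within none. Tumors 8 and 9 also held less Acta2 than any MEC library (186 CPM or more). Tumor 6 held more (313 CPM, against at most 291 CPM in MECs). The means of IFPS fibroblasts were 5339 CPM for Vim and 3571 CPM for Acta2. In tumor 6, Vim was at 2684 CPM (50.3% of its mean, the highest share among the tumors of that line) and Acta2 at 313 CPM. In tumor 8 the 2 genes were at 903 and 22.1 CPM. In tumor 9 they were at 2200 and 20.1 CPM, the latter 0.562% of its mean. Symbols for markers of fibroblasts, muscle, fat and blood cells could not be joined to the identifiers, so the levels of those markers beside these values were not analysed here.

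Over all 9 IFPS tumors, edgeR called 0 of the 4 genes against IFPS pads, beside 27.9% of all genes. It found 0 of the 4 at an unadjusted p under 0.05, where 6935 of all genes lay. DESeq2 called 0 of the 4, beside 5805 of 17062 genes. The differences were 0.71 ± 0.64 for Cdh1 (log2, SE; adjusted p = 0.416), 0.87 ± 0.70 for Epcam (adjusted p = 0.361), 0.03 ± 0.45 for Vim (adjusted p = 0.965) and -0.17 ± 0.54 for Acta2 (adjusted p = 0.845). With tumors 6, 8 and 9 left out, the differences were 1.30 ± 0.19 for Cdh1, 1.45 ± 0.15 for Epcam and -1.40 ± 0.31 for Vim. These tumors were left out for their values of the same genes, so this fit describes the other 6 tumors and is no test. It called 3 of the 4 genes in each line, beside 49.6% of genes in IFPS, 52.1% in PS and 41.2% in IF, and these counts support nothing. Acta2 was called in none of the 3 lines in either fit. Of the 24 exact permutation tests of log2 CPM in tumors, none adjusted for their number, the smallest possible p was reached for Epcam in PS (0.0002) and for Epcam and Vim in IF (0.0179), while in IFPS the p-values of the 4 genes against pads ran from 0.309 to 0.553.

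**Figure D4:**
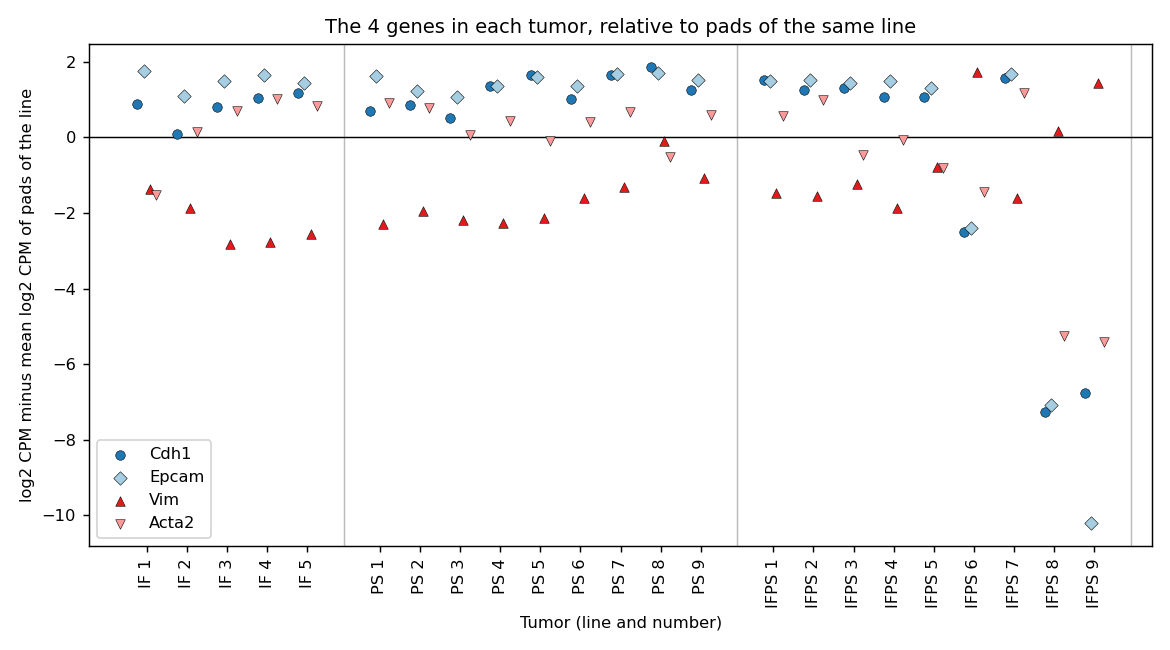
Log2 CPM of each gene in each of the 23 tumors minus the mean log2 CPM of the pads of its line (1 symbol per gene). In 18 tumors Cdh1 and Epcam lie above all pads of the line and Vim below; IFPS tumors 6, 8 and 9 have Cdh1, Epcam and Acta2 below all pads.

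The change from pad to tumor was not called different between lines for any of the 4 genes. Vim had the largest differences in change, 2.20 ± 0.77 for IFPS minus IF (log2, SE; adjusted p = 0.143) and 1.56 ± 0.64 for IFPS minus PS (adjusted p = 0.267). edgeR called 0 of the 4 genes in each of the 3 contrasts, beside 0.36% of genes for PS minus IF, 0.464% for IFPS minus IF and 0% for IFPS minus PS. At an unadjusted p under 0.05 it found 0 of the 4 for PS minus IF and Vim in both others, and DESeq2 called 0 in all 3. Of all genes, 1653 had an unadjusted p under 0.05 for PS minus IF, 2827 for IFPS minus IF and 2364 for IFPS minus PS. Of all genes, DESeq2 called 253 for PS minus IF, 592 for IFPS minus IF and 211 for IFPS minus PS. With the 3 tumors left out, the difference in Vim was 0.75 ± 0.48 for IFPS minus IF and 0.11 ± 0.41 for IFPS minus PS, given as a description.

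Tumors of the 3 lines were also set against each other. Vim was higher in IFPS than in IF tumors by 1.96 ± 0.63 (log2, SE; adjusted p = 0.0758) and than in PS tumors by 1.53 ± 0.50 (adjusted p = 0.0851), and neither was called. DESeq2 called both (adjusted p = 0.0107 and 0.0289), beside 12.1% of genes against IF and 7.43% against PS. Without tumors 6, 8 and 9 the edgeR differences were 0.48 ± 0.38 and 0.07 ± 0.33. edgeR called 0 of the 4 genes for PS against IF, beside 2.48% of 15966 genes, 0 for IFPS against IF, beside 4.25%, and 0 for IFPS against PS, beside 0%. For PS against IF it found 0 of the 4 at an unadjusted p under 0.05, DESeq2 called 0, and in both other contrasts Vim was the 1 gene found. Of all genes, 2693 had an unadjusted p under 0.05 for PS against IF, 3669 for IFPS against IF and 3537 for IFPS against PS. Of all genes, DESeq2 called 1028 for PS against IF and 1173 for IFPS against PS. Cdh1 differed between PS and IF tumors by 0.86 ± 0.85 (adjusted p = 0.667), with 7 of 9 PS tumors above all IF tumors. In a fit of PS and IF tumors alone it was called (0.87 ± 0.24, adjusted p = 0.0446), as 1 of the 4 genes beside 7.86% of genes. The fit without the 3 IFPS tumors also called 1 of the 4, Cdh1, beside 12.6% of genes. Those tumors were left out for their values of these genes, so that fit is no test.

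The spread among tumors of a line differed by gene. In the 9 IFPS tumors, the SD of log2 CPM was 4.48 for Epcam and 3.65 for Cdh1, and 0.163% and 0.765% of the 17789 genes that passed the filter over all groups had a larger SD there. For Acta2 it was 2.498 (4.46% of genes larger) and for Vim 1.37 (20.3%). In the 9 PS tumors, the SD was 0.22 for Epcam (73.8% of genes larger), 0.47 for Cdh1, 0.46 for Acta2 and 0.73 for Vim. Epcam was thus among the most variable genes in IFPS tumors, and below the median SD of all genes, 0.40, in PS tumors.

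Cdh1 and Epcam were related among the tumors also without the 3 that stood apart. Of the 18 relations planned over all tumors, PS tumors and IFPS tumors, 13 were past an adjusted p of 0.05 for Pearson's r. Since tumors 6, 8 and 9 stood apart from the rest, no r over a set of tumors that holds them is given. The 18 relations were computed again without them, a choice made after seeing the data. Among the 20 others, Cdh1 and Epcam rose together (r = 0.788, rho = 0.641, permutation test, adjusted p = 0.00126 and 0.028, n = 20; r = 0.599 without the 2 farthest). Within PS tumors alone their r was 0.742 and rho 0.7 (exact permutation test, n = 9), with adjusted p = 0.0425 and 0.0708 among the 18 relations as planned and 0.153 and 0.26 among those computed again. Leaving out the 2 farthest PS tumors gave r = 0.465. Within the 6 IFPS tumors their r and rho were 0.739 and 0.714 (exact permutation test, adjusted p = 0.231 and 0.282, n = 6). Vim against Epcam among the 20 gave r = 0.350 and rho = 0.409 (permutation test, adjusted p = 0.231 and 0.266; r = 0.429 without the 2 farthest), and Vim against Cdh1 gave r = 0.385 and rho = 0.409 (permutation test, adjusted p = 0.231 and 0.266; r = 0.293 without the 2 farthest). Epcam and Acta2 were related within the 6 IFPS tumors (r = 0.883, rho = 1.0, exact permutation test, adjusted p = 0.0375 and 0.028, n = 6; r = 0.812 without the 2 farthest), although with RLE factors the r of 0.870 was not past the threshold (adjusted p = 0.0625). Among PS tumors they gave r = -0.134 and rho = -0.067 (exact permutation test, adjusted p = 0.733 and 0.88, n = 9). Of the 18 relations computed again, 2 were past the threshold for r, Cdh1 with Epcam in the 20 tumors and Epcam with Acta2 in the 6 IFPS tumors. The difference between the relations in IFPS and PS was not tested.

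PS tumor 8 and IF tumor 1, singled out after their values were seen, had much Epcam and Vim for their lines. In PS tumor 8, Cdh1 (949 CPM), Epcam (807 CPM) and Vim (755 CPM) were each the highest of the 9 PS tumors, and Acta2 (576 CPM) was the lowest. IF tumor 1 had the highest Epcam (700 CPM) and Vim (371 CPM) and the lowest Acta2 (175 CPM) of the 5 IF tumors, with Cdh1 at 353 CPM. In both tumors the epithelial genes lay above all pads of the line.

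**Figure D5:**
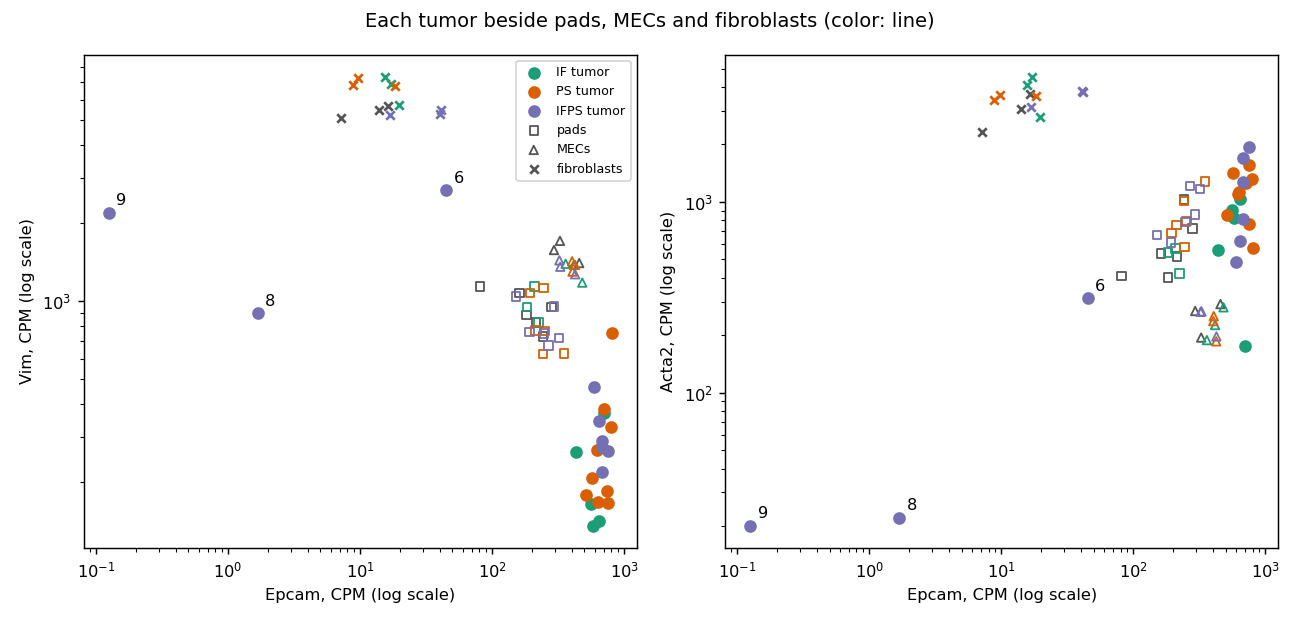
Vim (left) and Acta2 (right) against Epcam, CPM on log scales, for the 23 tumors (filled circles), 21 pads (squares), 12 MEC (triangles) and 12 fibroblast libraries (crosses); colors mark the line and numbers mark IFPS tumors 6, 8 and 9. Tumors 6 and 9 have more Vim than all pads, tumor 8 lies at the pads' level, and all 3 have less Epcam and Acta2 than all pads.

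Compared with MECs of the same lines, tumors held less Vim and more Acta2. Vim ran from 136 CPM through a median of 267 to 2684 CPM in 23 tumors and from 1181 through 1382 to 1439 CPM in 9 MEC libraries, and 21 tumors lay below all MECs. Acta2 ran from 20.1 through 856 to 1948 CPM in tumors and from 186 through 237 to 280 CPM in MECs, and 20 tumors lay above all MECs. The mean differences were -1.84 ± 0.35 for Vim (log2, SE; adjusted p = 3.56e-05) and 1.87 ± 0.49 for Acta2 (adjusted p = 0.00137), so that 2 of the 4 genes were called, beside 68.5% of 16865 genes. Cdh1 at -0.58 ± 0.51 (adjusted p = 0.312) and Epcam at 0.52 ± 0.57 (adjusted p = 0.428) were not. Epcam lay above all MECs in 19 tumors and below all MECs in 3. Cdh1 lay above all in 3 and below all in 15. With IFPS tumors 6, 8 and 9 left out for their values of these genes, the difference was 0.71 ± 0.08 for Epcam and -0.38 ± 0.13 for Cdh1. That fit called all 4 genes, beside 76.6% of genes, which describes the other 20 tumors and is no test.

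The balance of the 2 epithelial genes thereby differed by kind of sample. Epcam per Cdh1, a ratio of CPM that is comparable between libraries but not a ratio of molecules, had a median of 0.613 in MECs, 0.593 in fibroblasts, 0.989 in pads and 1.23 in tumors. It ran from 0.541 to 0.688 in the 12 MEC libraries and from 0.87 to 1.40 in the 21 pads, with no overlap. IF tumors had the highest ratios, from 1.29 to 2.14, while PS tumors ran from 0.851 to 1.77. In IFPS tumor 9 it was 0.0645, from 2 and 31 reads, and in tumors 6 and 8, whose epithelial genes were also low, it was 1.16 and 1.26. Vim per Cdh1 had a median of 2.06 in MECs, 245 in fibroblasts, 3.87 in pads and 0.484 in tumors. It was 69.3 in IFPS tumor 6, 678 in tumor 8 and 1130 in tumor 9, and at most 1.29 in the other tumors.

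Across all 80 libraries, Cdh1 and Epcam tracked each other with r = 0.982 of log2 CPM, given as a description, since these libraries share tissues and lines. Over 17785 other genes, Epcam was the gene nearest to Cdh1 after ENSRNOG00000009779 (r = 0.982 for both at 3 digits). The gene nearest to Epcam was ENSRNOG00000015522 (r = 0.993), to Vim ENSRNOG00000056343 (r = 0.955) and to Acta2 ENSRNOG00000027736 (r = 0.974). ENSRNOG00000056343 was at 250 ± 15.5 CPM in wildtype fibroblasts (SD, n = 3), 96.3 ± 7.59 CPM in wildtype MECs (SD, n = 3) and 23.9 ± 2.42 CPM in IF tumors (SD, n = 5). ENSRNOG00000027736 was at 204 ± 52.2 CPM in wildtype fibroblasts, 20.4 ± 8.62 CPM in wildtype MECs and 150 ± 51.1 CPM in PS tumors (SD, n = 9). The number of genes with r above 0.9 was 172 for Cdh1, 205 for Epcam, 36 for Vim and 9 for Acta2. Vim and Acta2, both highest in fibroblasts, had r = 0.128 with each other.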

How the data were processed

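Raw counts per Ensembl gene, deposited by the authors as whole numbers in 1 table, were used as they stand. Per the submitters' processing notes, STAR 2.5.2b, Trim Galore and build Rnor_6.0 were used. The counting tool and its use of strand are not given in the sources used here. Groups came from the labels and columns were matched by title. Members and lists were chosen with earlier results of these data known. edgeR 4.0.16 in R 4.3.3 (TMM, filterByExpr, quasi-likelihood test, Benjamini-Hochberg over all genes tested) gave every adjusted p not credited to DESeq2 1.42.0 or to permutations. Pads had the title set as a covariate when lines were compared. Log2 CPM used a prior count of 2. Named genes were the 4 members and, for each, the identifier with the highest r over 80 libraries. Of the identifiers, 0 matched a symbol in a reference of 47357 rat genes, so the lists of junction, contractile and transition genes and of cell type markers were not analysed here. Among 166 pairs of libraries within groups, chi-square over its degrees of freedom was at least 8.7, so no pair counted as 1 library. Counts were simulated with 200 genes changed and each other gene at the same mean in all groups. In the data far more genes were called in these comparisons, so the shares recovered do not give the power of the tests reported. On the simulated counts, edgeR recovered 65% of 4-fold and 49% of 2-fold changes for PS tumors against pads (16978 genes), with 3.39% of its calls on unchanged genes. For MECs against fibroblasts (15379 genes) it recovered 97% and 93%. Permutation tests were two-sided, exact below 10 samples and with 100000 draws otherwise. Alternatives were RLE factors, no filter, DESeq2, pads of 1 set or without the covariate, fits of only the 2 groups, a replicate block, wildtype libraries alone and leaving out each library. Added after seeing the data were fits without IFPS tumors 6, 8 and 9 or without IF adipocytes, contrasts between mutated lines in adipocytes and fibroblasts, and relations among pads.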

Additional observations from a re-analysis of the deposited data

Results flagged for a closer look

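Direct tests between mutated lines, added after the data had been seen, gave 13 calls for the 4 genes in edgeR. Of all genes, 52.7% were called for IF against PS adipocytes and 53% for IF against IFPS adipocytes. In fibroblasts, 31.4% were called for IFPS against IF and 40.5% for IFPS against PS. The lines were picked for their values of these same genes, so the calls are no test. IF adipocytes exceeded PS adipocytes by 7.30 for Cdh1, 7.33 for Epcam, 1.11 for Vim and 5.96 for Acta2 on the log2 scale. They exceeded IFPS adipocytes by 7.14 for Cdh1, 7.20 for Epcam, 1.06 for Vim and 6.30 for Acta2. IFPS fibroblasts differed from IF fibroblasts by 1.21 for Cdh1 and -0.33 for Vim, and from PS fibroblasts by 1.80 for Cdh1, 1.42 for Epcam and -0.38 for Vim. Levels of Epcam and Cdh1 in IF adipocyte 2 were lower than those in IF adipocytes 1 and 3, and IFPS fibroblast 2 lay below IFPS fibroblasts 1 and 3. In groups of 4 to 10 samples, 24 combinations of gene and group were examined for a single sample far from the others and 0 were found; chance alone gives about 1 in 20. IFPS tumors 6, 8 and 9 lay low together, and that search for 1 sample did not single them out.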

How the results depend on the processing

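With RLE factors and without the filter on low counts, each comparison called as many of the 4 genes as the main fit. DESeq2 called 1 gene instead of 0 in PS adipocytes, IF fibroblasts, IFPS against IF tumors and IFPS against PS tumors, 2 instead of 0 in IFPS fibroblasts and 3 instead of 2 for IFPS against IF fibroblasts. Fitting only the 2 groups compared gave 3 genes instead of 1 for IF and PS tumors against pads and 1 instead of 0 for PS against IF tumors. It gave 0 instead of 1 for PS fibroblasts, beside 1265 of 13583 genes. For IFPS against IF fibroblasts it gave 1 instead of 2, beside 4006 of 13472 genes. Without IFPS tumors 6, 8 and 9 the counts were 3 for each line against pads, 1 for PS against IF tumors, 4 for tumors against MECs, and 2 of 18 relations among tumors instead of 13. Of those 13, Cdh1 with Epcam in PS tumors holds none of the 3 tumors, and its r of 0.742 missed the threshold only after the other relations in the adjustment changed. There Vim in IFPS tumors against pads turned from 0.03 to -1.40. Leaving out 1 library gave 0 to 1 genes in PS adipocytes, IF fibroblasts and PS fibroblasts, 0 to 2 in IFPS fibroblasts and in IFPS against IF fibroblasts, 2 to 3 in IFPS against PS fibroblasts and 1 to 3 in PS tumors against pads; the other comparisons kept their counts. Under RLE, Epcam and Acta2 in 6 IFPS tumors had r = 0.870 (adjusted p = 0.0625). The share of all genes called moved between fits too, as from 38.9% to 43.5% for PS tumors against pads without IFPS tumor 8. The counts of called members are therefore no result about the 4 genes alone, and the cause of the changes was not tested. Epcam in 3 IFPS tumors rests on 2 to 1201 reads, which limits its precision.

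Title numbers shared across MECs, fibroblasts and adipocytes do not pair the libraries by the labels. Of 12 same-numbered MEC and fibroblast pairs, 11 had a correlation of deviations above 0.1. Among the 3 libraries of their line, 12 of 12 correlated best with their own number. That count was 11 for fibroblasts with adipocytes and 9 for MECs with adipocytes. For pads 1 to 12 it was 9 with MECs, 8 with fibroblasts and 8 with adipocytes. Whether a shared number marks 1 animal was not tested. With a replicate block, Cdh1 in MECs against fibroblasts was 4.46 and 4 genes were called in each comparison of cell types, as without it. Of all 15928 genes, that fit called 12669 for MECs against fibroblasts, 13655 for MECs against adipocytes and 13339 for fibroblasts against adipocytes.

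Counts over all genes moved by more than 1.5 times in several fits, here against those of the tests in the report. DESeq2 called 80 genes instead of 1 in PS and 21 instead of 0 in IFPS pads. In MECs it called 653 instead of 120 in IF, 870 instead of 347 in PS and 208 instead of 55 in IFPS. In adipocytes it called 497 instead of 54 in PS and 219 instead of 0 in IFPS, and in fibroblasts 1815 instead of 1063 in IF and 845 instead of 9 in IFPS. Among tumors it called 1028 instead of 396 for PS against IF, 1905 instead of 678 for IFPS against IF and 1173 instead of 0 for IFPS against PS. For the difference in change it called 253 instead of 62, 592 instead of 80 and 211 instead of 0 in the order PS minus IF, IFPS minus IF and IFPS minus PS. Without the filter the counts were 116 in PS and 8 in IFPS adipocytes, 31 in IFPS fibroblasts, and 29 for PS minus IF and 47 for IFPS minus IF. Fits of 2 groups called 7 in IF pads, 23, 36 and 10 in IF, PS and IFPS MECs, 4324 instead of 6893 in IF and 146 in PS adipocytes, and 89, 1265 instead of 3016 and 0 in IF, PS and IFPS fibroblasts. They called 2346 for IFPS tumors against pads instead of 4814, 1198 for PS against IF tumors and 207 for IFPS against IF tumors. Pads 1 to 12 alone gave 2 in IF and 8 in PS pads, 3079 for PS tumors against pads instead of 6709, 1199 for IFPS, and 7 for PS minus IF and 0 for IFPS minus IF. Wildtype libraries alone gave 8334 for MECs against fibroblasts instead of 12622. Without the 3 IFPS tumors the counts were 7038 for IF tumors against pads instead of 4007, 8474 for IFPS, 375 for PS minus IF, 483 for IFPS minus IF, 1979 for PS against IF tumors and 1472 for IFPS against IF tumors.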
